A study of Homo sapiens with 12 samples.

Results

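Long noncoding RNAs (lncRNAs) known from the nucleus and from cancer were followed through an experiment on the RNA-binding protein HuR. The set is NEAT1, MALAT1, NORAD, TUG1, CRNDE, PVT1, OIP5-AS1, KCNQ1OT1, MIR17HG and H19, taken by matching their symbols to the Ensembl identifiers of the count data. All 10 of 10 were found among 57773 identifiers, and all 10 were among the 22984 genes that passed the filter on low counts and were tested. H19 passed it only through the precipitates: at least 10 counts were reached in 1 of 3 WT inputs, in 0 of 3 mutant inputs and in each of the 6 precipitates. TUG1 is typed as protein-coding in the annotation used and the other members as lncRNA.

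The libraries are stranded total RNA-seq from HuH-7, an established human hepatoma cell line. A pair of stable lines was used, 1 overexpressing wild-type (WT) HuR and 1 expressing HuR K120/182R, a mutant for SUMOylation, and both proteins carry a V5 tag. RNA was sequenced after immunoprecipitation of the tag (RIP) and from the same kind of cells without precipitation (input), which gives 4 groups of 3 libraries: WT RIP, WT input, mutant RIP and mutant input. The series asks which RNAs are bound by HuR that can be SUMOylated and by HuR that cannot. Every group carries the cells' own ELAVL1, the gene of HuR, and no mock precipitation or line without the tagged protein is used here. The labels name neither the promoter of the constructs nor the number of clones behind a line, and they do not say that replicates are separate cultures, so a p-value here reflects only how these libraries scatter, and that scatter may be technical.

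HuR binds AU-rich and U-rich stretches of RNA, mostly in the nucleus, and can shuttle with its targets to the cytoplasm, where it is known for stabilising mRNAs. SUMOylation joins SUMO, a relative of ubiquitin, to lysines, and arginines in their place cannot take it up. LncRNAs act as RNA: some build nuclear bodies, some sequester proteins in the cytoplasm, some silence genes on their own chromosome and some are the precursors of microRNAs, and HuR is a known partner of several of them.

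Sequence elements that HuR and other partners are known for were looked up first, since they differ widely over these 10 RNAs. The pentamer ATTTA, the core of AU-rich elements, was counted on the transcript strand of all annotated exons, with overlaps allowed. The windows shown hold the most ATTTA copies found in 80 bases of exon for 9 of the RNAs (none is shown for PVT1), read from the GRCh37 (hg19) genome in the direction of the transcript, with each ATTTA in capitals. NEAT1 lies at chr11:65201462-65201541 (plus strand), MALAT1 at chr11:65267002-65267081 (plus), NORAD at chr20:34636506-34636585 (minus), TUG1 at chr22:31366494-31366573 (plus), CRNDE at chr16:54958716-54958795 (minus), OIP5-AS1 at chr15:41591287-41591366 (plus), KCNQ1OT1 at chr11:2714783-2714862 (minus), MIR17HG at chr13:92003974-92004053 (plus) and H19 at chr11:2018238-2018317 (minus).
NEAT1: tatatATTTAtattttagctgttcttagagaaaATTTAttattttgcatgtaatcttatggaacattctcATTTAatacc
MALAT1: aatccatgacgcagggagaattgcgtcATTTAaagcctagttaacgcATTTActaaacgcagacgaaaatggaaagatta
NORAD: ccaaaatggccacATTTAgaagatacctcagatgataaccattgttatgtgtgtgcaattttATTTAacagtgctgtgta
TUG1: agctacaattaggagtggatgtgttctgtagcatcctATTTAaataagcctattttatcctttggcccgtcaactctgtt
CRNDE: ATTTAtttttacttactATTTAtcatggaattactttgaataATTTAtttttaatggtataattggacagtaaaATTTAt
OIP5-AS1: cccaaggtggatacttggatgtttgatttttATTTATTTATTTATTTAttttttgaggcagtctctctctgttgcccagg
KCNQ1OT1: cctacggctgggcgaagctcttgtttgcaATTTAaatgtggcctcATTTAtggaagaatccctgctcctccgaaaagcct
MIR17HG: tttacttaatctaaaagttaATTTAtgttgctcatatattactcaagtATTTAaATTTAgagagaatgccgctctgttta
H19: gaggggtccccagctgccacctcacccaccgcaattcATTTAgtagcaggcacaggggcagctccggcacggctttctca

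CRNDE and OIP5-AS1 had 4 copies within 80 bases, in OIP5-AS1 as an unbroken overlapping run, and H19 had 1. Over whole exons, MIR17HG held 45 copies (3.49 per kb), CRNDE 51 (3.46 per kb), NORAD 13 (2.41 per kb) and MALAT1 23 (2.2 per kb). NEAT1 held 46 (2.02 per kb), OIP5-AS1 43 (1.92 per kb), TUG1 17 (1.67 per kb), KCNQ1OT1 127 (1.37 per kb) and PVT1 30 (1.18 per kb). H19, the most GC-rich at 61.8% GC against 37.0% to 47.2% in the others, held 2 (0.578 per kb). Of 4524 long noncoding genes (those tested and TUG1), 67.9% held ATTTA at least once, with a median of 1.11 per kb, and the densities of MIR17HG and CRNDE lay above those of 92.2% and 91.9% of them. Matches are descriptions of sequence and not measured binding sites.

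NORAD carries a second element, the Pumilio motif TGTANATA. It had 15 copies on the transcript strand (2.78 per kb), a density above that of 99.7% of the 4524 long noncoding genes, of which 17.3% held the motif at all. NEAT1 had 6 copies in a far longer transcript and MALAT1 had 0. The window of 300 bases that holds 3 of NORAD's copies, in capitals, lies at chr20:34637384-34637683 on the minus strand.
NORAD: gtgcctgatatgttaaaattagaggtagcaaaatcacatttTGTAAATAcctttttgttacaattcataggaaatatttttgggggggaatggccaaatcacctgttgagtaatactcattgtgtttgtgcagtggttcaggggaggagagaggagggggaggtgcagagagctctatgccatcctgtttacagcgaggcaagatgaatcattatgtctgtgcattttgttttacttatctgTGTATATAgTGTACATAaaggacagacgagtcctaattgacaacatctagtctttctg

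MIR17HG and H19 are host transcripts of microRNAs. The main arms of the miR-17-92 cluster in MIR17HG, from RefSeq (GRCh38.p14), are printed with the seed (bases 2 to 8) in capitals, because the seed decides which mRNAs a microRNA pairs with. miR-17-5p and miR-20a-5p share the seed AAAGUGC, and miR-19a-3p and miR-19b-3p share GUGCAAA.
miR-17-5p: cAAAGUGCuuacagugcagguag
miR-20a-5p: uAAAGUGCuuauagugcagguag
miR-18a-5p: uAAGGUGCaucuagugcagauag
miR-19a-3p: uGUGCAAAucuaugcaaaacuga
miR-19b-3p: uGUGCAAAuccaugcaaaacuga
miR-92a-3p: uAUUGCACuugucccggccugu
The counts of MIR17HG are of the host RNA and say nothing of these mature forms. Of 12 listed genes of microRNAs inside MIR17HG, H19 and PVT1, 3 had an identifier that matched (MIR1205 and MIR1207 with 2 counts each and MIR1208 with 0, summed over the 12 libraries), and none was tested.

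Library totals ran from 31774994 to 73149117 gene counts. Normalised levels are CPM, counts relative to library sizes that were scaled with the TMM method (trimmed mean of M values), whose factors were 1.32 to 1.78 in precipitates and 0.526 to 0.909 in inputs. Differences are log2 fold changes with their standard error (SE), from edgeR's quasi-likelihood test over 22984 genes with Benjamini-Hochberg adjustment and a threshold of 0.05. They are relative to the typical gene. With unadjusted library totals as the scale, the all-gene median became 1.12 in the WT enrichment, 1.38 in the mutant enrichment, 0.25 in the difference of enrichments, −0.17 between precipitates and −0.43 between inputs. On that scale 15761 of the 22984 genes rose and 879 fell in the WT enrichment, and 16795 rose and 922 fell in the mutant enrichment. Between precipitates 776 rose and 2529 fell, and between inputs 386 rose and 6822 fell. Counts given below with total library size stand beside these. All 18 hepatocyte and hepatoma markers reached a mean of at least 1 CPM in each group, against 2 to 3 of 10 immune markers and 0 to 2 of 9 stromal and endothelial markers. In bulk libraries fewer cells with an RNA and less RNA per cell cannot be told apart, here and in every comparison of levels that follows.

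Among all counts the 10 RNAs together took 0.0733% ± 0.0112 (SD, n = 3) in WT input, which became 0.406% ± 0.0451 after WT precipitation. The mutant line went from 0.0574% ± 0.00593 in its input to 0.342% ± 0.0429 in its precipitate. Per length, NORAD and MALAT1 stood far above the rest. In WT input the mean level was 59.6 CPM per kb of exon for NORAD and 39.7 for MALAT1, with no overlap between their libraries. In mutant input MALAT1 (50.5 CPM per kb) and NORAD (48.0) overlapped. TUG1, OIP5-AS1 and NEAT1 formed a middle tier, at 4.73, 4.24 and 1.83 CPM per kb in WT input, where the first pair overlapped.

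Below these, CRNDE stood at 0.753 CPM per kb in WT input, MIR17HG at 0.459, KCNQ1OT1 at 0.124, PVT1 at 0.0893 and H19 at 0.0477. The libraries of KCNQ1OT1 and PVT1 overlapped there, and so did those of PVT1 and H19. In WT RIP the order became NORAD (185 CPM per kb), MALAT1 (101), OIP5-AS1 (8.0), NEAT1 (7.21), CRNDE (3.03), TUG1 (2.67), MIR17HG (1.08), KCNQ1OT1 (0.330), H19 (0.253) and PVT1 (0.185). OIP5-AS1 and NEAT1 overlapped in that group, as did KCNQ1OT1 with H19 and H19 with PVT1. TUG1 thus had rank 3 of 10 in WT input and rank 6 in WT RIP. These orders rest on the sum of annotated exons. By the longest transcript, OIP5-AS1 (10.7 CPM per kb) passed TUG1 (6.42, rank 4) in WT input, and CRNDE (1.76) stood next to NEAT1 (1.83). The change was greatest for PVT1, whose annotated exons sum to 25431 bases while its longest transcript has 2450: by the longest transcript its level was 0.927 CPM per kb in WT input and 5.69 in mutant RIP, against 0.0893 and 0.548 by all exons.

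**Figure D1:**
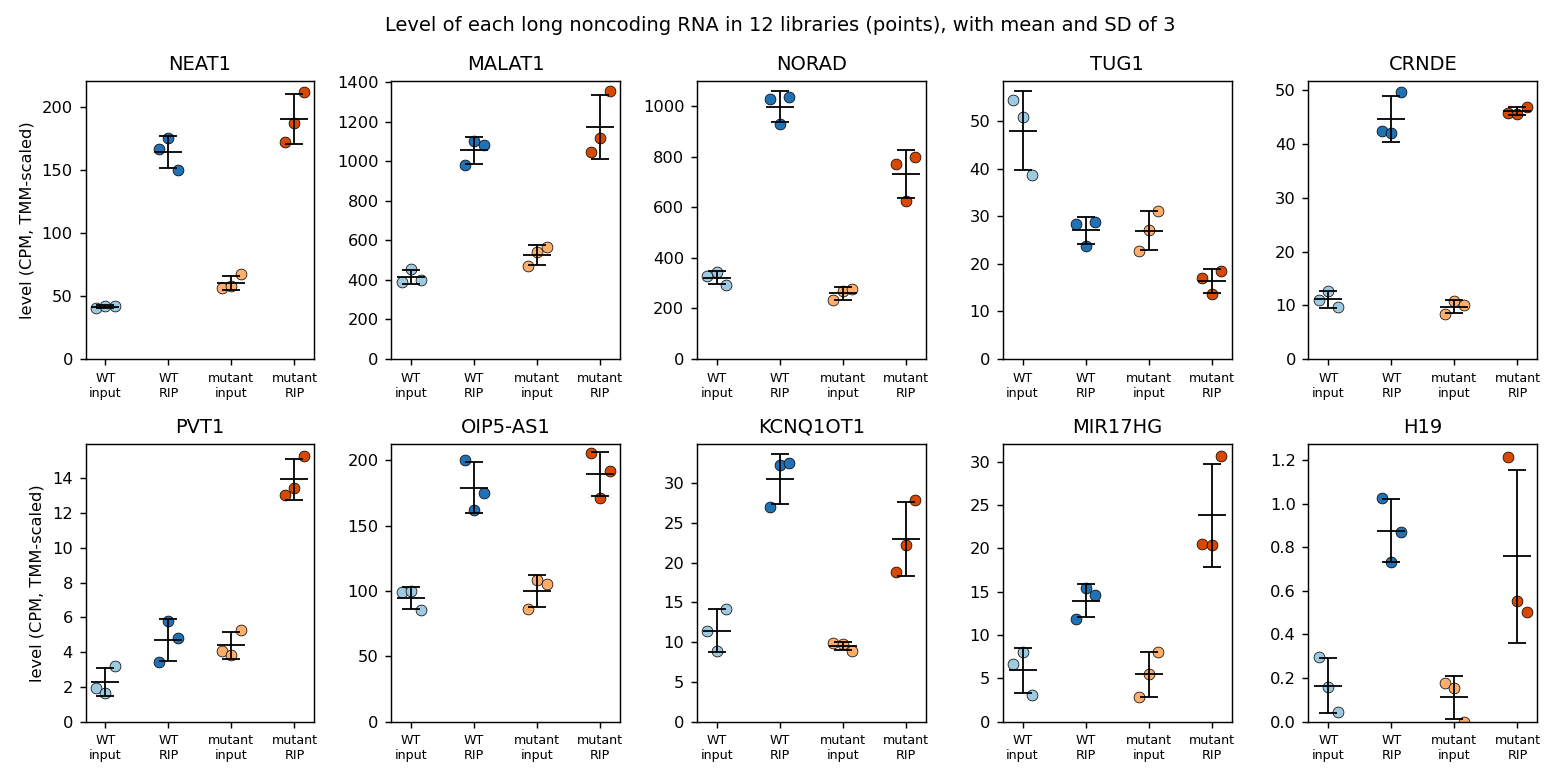
Normalised level (CPM) of each of the 10 lncRNAs in the 12 libraries, with 1 point per library and each group's mean marked. TUG1 is the RNA whose precipitates lie under the inputs of the same line, and NORAD and MALAT1 are the highest, with means of 999 and 1054 CPM in WT RIP.

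NEAT1 (ENSG00000245532, chr11:65190245-65213011, plus strand, hg19; 1 exon segment of 22767 bases) is the scaffold RNA of paraspeckles, nuclear bodies that hold RNA-binding proteins and edited or unspliced RNA. In libraries 1, 2 and 3, its level was 167, 176 and 150 CPM in WT RIP and 40.3, 42.0 and 42.4 CPM in WT input. In the mutant line it was 172, 187 and 212 CPM in RIP and 56.5, 57.8 and 67.1 CPM in input. Each precipitate lay above each input of its line, and the mutant inputs all lay above the WT inputs. Enrichment in the precipitate was 3.95-fold with WT HuR (log2 1.98 ± 0.13 SE, adjusted p = 7.55e-12) and 3.15-fold with the mutant (1.66 ± 0.13, adjusted p = 4.33e-11). The difference of these enrichments was −0.32 with a 95% interval of −0.68 to 0.04 (edgeR adjusted p = 0.445). Between the lines, NEAT1 rose 1.45-fold in mutant inputs (0.54 ± 0.12, adjusted p = 0.0036). With total library size that input difference was 0.11 (adjusted p = 0.712) and was no longer called.

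MALAT1 (ENSG00000251562, chr11:65265111-65275544, plus strand; 10434 exon bases) lies close downstream of NEAT1 and is an abundant RNA of nuclear speckles, the bodies that store splicing factors. Its level was 978, 1102 and 1083 CPM in WT RIP and 389, 455 and 398 CPM in WT input. It was 1046, 1116 and 1356 CPM in mutant RIP and 471, 543 and 567 CPM in mutant input. Precipitates and inputs did not overlap in either line, and neither did the inputs of the lines, the mutant being higher. MALAT1 rose 2.55-fold in the WT precipitate (1.35 ± 0.16, adjusted p = 7.63e-08) and 2.22-fold in the mutant precipitate (1.15 ± 0.15, adjusted p = 5.41e-07), with a difference of enrichments of −0.20 (interval −0.64 to 0.25). With the trend in GC content removed the mutant value was 0.69 (adjusted p = 9.15e-05). The inputs differed by 0.35 ± 0.15, which missed the threshold (edgeR adjusted p = 0.119) but passed it in DESeq2 (0.39, adjusted p = 0.0141). An opposite-strand lncRNA, ENSG00000270117, shares 610 exon bases with MALAT1 and held 0.754% of MALAT1's count in WT RIP and 0.265% in WT input.

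The proteins of the bodies that NEAT1 and MALAT1 belong to were read as mRNAs. Over all genes tested, 25.6% rose and 25.4% fell in the WT precipitate and 29.0% and 28.0% in the mutant precipitate. Over protein-coding genes the shares were 22% and 34%, and 26.6% and 36.1%. Of 23 paraspeckle protein genes, 5 rose and 3 fell in the WT precipitate and 7 rose and 5 fell in the mutant precipitate, where total library size gave 22 higher and 1 lower in both. On that scale 15761 of all 22984 genes were higher with WT HuR and 16795 with the mutant. HNRNPUL1 fell by 2.19 and by 2.56 (adjusted p = 2.77e-11 and 1.19e-12). In mutant inputs 6 of the 23 were lower and 0 higher, where 10% of all genes and 14.2% of protein-coding genes were lower. Among the 6 were the NEAT1-binding SFPQ (−0.38, adjusted p = 0.0317) and PSPC1 (−0.41, adjusted p = 0.0174), while NONO did not pass (0.24, adjusted p = 0.153, and −0.20 with total library size). Total library size gave 13 lower and 0 higher, where 6822 of all 22984 genes were lower and 386 higher. Of 20 nuclear speckle protein genes, 6 rose and 2 fell with WT HuR and 8 rose and 2 fell with the mutant (19 and 0 in both with total library size). PNN (1.12 ± 0.12 and 1.39 ± 0.12) was among the higher and U2AF2 (−0.89 ± 0.13 and −0.92 ± 0.13) among the lower, though with total library size it stood at 0.17 and 0.38 and was not called.

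NORAD (ENSG00000260032, chr20:34633540-34638940, minus strand; 1 exon of 5401 bases) is a cytoplasmic RNA that sequesters Pumilio proteins through the motif shown and helps keep chromosomes stable. It was measured at 1029, 930 and 1037 CPM in WT RIP and at 328, 344 and 293 CPM in WT input. The mutant line gave 774, 624 and 798 CPM in RIP and 232, 268 and 278 CPM in input. The mutant libraries lay under the WT libraries in precipitates and inputs alike, and each precipitate above its inputs. Enrichment was 3.1-fold with WT HuR (1.63 ± 0.15, adjusted p = 1.99e-09) and 2.82-fold with the mutant (1.495 ± 0.15, adjusted p = 4.73e-09), and these differed by −0.14 (interval −0.57 to 0.29). NORAD fell by 0.45 ± 0.15 between the precipitates (1.37-fold, adjusted p = 0.0314), while its input difference of −0.31 ± 0.15 missed the threshold (adjusted p = 0.152). The call between precipitates was lost without WT RIP 1 (−0.43, adjusted p = 0.0739), WT RIP 3 (−0.42, adjusted p = 0.0888) or mutant RIP 2 (−0.35, adjusted p = 0.176), with TMM from coding genes (−0.39, adjusted p = 0.06) and with only the groups compared (−0.46, adjusted p = 0.109).

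Of the 6 tested genes for Pumilio proteins and other NORAD partners, 3 rose and 1 fell in the WT precipitate and 5 rose and 1 fell in the mutant precipitate, against 5 and 0 in both with total library size. With TMM the shares over all genes were 25.6% higher and 25.4% lower, and 29.0% and 28.0%. Total library size gave 15761 and 16795 of all 22984 genes higher. PUM2 stood at 1.18 ± 0.13 (adjusted p = 6.06e-08) and 1.56 ± 0.14 (adjusted p = 3.91e-10). RALY was lower (−1.45 ± 0.15 and −1.33 ± 0.15), and by total library size −0.41 and −0.01, neither called. Between precipitates 0 of the 6 were called, where 9.87% of all genes rose and 9.76% fell. In mutant inputs 2 were lower and 0 higher, where 10% of all genes were lower and 7.47% higher. Of these 2, KHDRBS1 stood at −0.52 (adjusted p = 0.00168). Total library size gave 5 lower and 0 higher between inputs, where 6822 of all 22984 genes were lower and 386 higher.

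OIP5-AS1 (ENSG00000247556, chr15:41576156-41614590, plus strand; 22370 exon bases in 16 segments), known as cyrano in other vertebrates, is a mostly cytoplasmic RNA with reported binding of HuR and of a microRNA. Its level was 200.1, 162 and 175 CPM in WT RIP and 99.3, 99.99 and 85.2 CPM in WT input. It was 206, 172 and 191 CPM in mutant RIP and 86.1, 108 and 105 CPM in mutant input. Precipitates lay above inputs in both lines, and the lines overlapped in both kinds of library. OIP5-AS1 rose 1.89-fold with WT HuR (0.92 ± 0.13, adjusted p = 2.81e-06) and 1.9-fold with the mutant (0.92 ± 0.13, adjusted p = 1.78e-06), with a difference of 0.01 (interval −0.38 to 0.39). Removing each library's trend with GC content moved the values to 0.61 and 0.50 (adjusted p = 3.49e-05 and 0.000303). OIP5 on the opposite strand shares 759 exon bases (3.39%) and was not called (0.24 and 0.19, adjusted p = 0.13 and 0.218). NUSAP1 on the same strand shares 195 bases (0.872%).

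TUG1 (ENSG00000253352, chr22:31365231-31375381, plus strand; 10151 exon bases) is a widely expressed RNA, found in nucleus and cytoplasm, with reported binding of the Polycomb complex. It was the 1 member lower in the precipitates with TMM scaling, a direction that turned with total library size. WT RIP held 28.5, 23.8 and 28.9 CPM and WT input 54.6, 50.8 and 38.7 CPM. In the mutant line RIP held 17.1, 13.6 and 18.6 CPM and input 22.8, 27.1 and 31.1 CPM. All 4 pairs of groups were separate: every precipitate lay under every input of its line, and every mutant library under every WT library of its kind. TUG1 fell by 0.83 ± 0.15 in the WT precipitate (1.77-fold, adjusted p = 3.59e-05) and by 0.72 ± 0.15 in the mutant precipitate (1.65-fold, adjusted p = 0.00018), and the enrichments differed by 0.11 (interval −0.32 to 0.53). With the trend in GC content removed the mutant value was −1.18 (adjusted p = 1.43e-09).

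The direction of TUG1 between precipitate and input turned with the scaling. Scaled by total library size, its value was 0.24 with WT HuR (adjusted p = 0.284) and 0.60 with the mutant (adjusted p = 0.0056), both smaller than the median of all genes under that scaling. As a share of all counts, TUG1 held 0.0044% in WT RIP and 0.00373% in WT input. Relative to the typical gene it was low, and in raw share it was not. Between the lines TUG1 was lower in the mutant under each scaling: it fell by 0.72 ± 0.15 between precipitates (1.65-fold, adjusted p = 0.00102) and by 0.83 ± 0.15 between inputs (1.78-fold, adjusted p = 0.000306), and total library size gave −0.91 and −1.27. An opposite-strand lncRNA, ENSG00000269987, lies wholly in TUG1's exons over 546 bases, held 9.74% to 13% of TUG1's count, and moved alongside (−0.85 and −0.83 in the enrichments, −1.12 between precipitates, −1.14 between inputs). A second such lncRNA, ENSG00000269972, covers 264 bases and held 5.26% of TUG1's count in WT input and 7.64% in WT RIP. It was not called in the WT enrichment (−0.30, adjusted p = 0.346) or between inputs (−0.73, adjusted p = 0.0614), and was lower in the mutant enrichment (−0.81, adjusted p = 0.0173) and between precipitates (−1.24, adjusted p = 0.00188). How far reads of TUG1 and these genes were mixed was not tested.

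**Figure D2:**
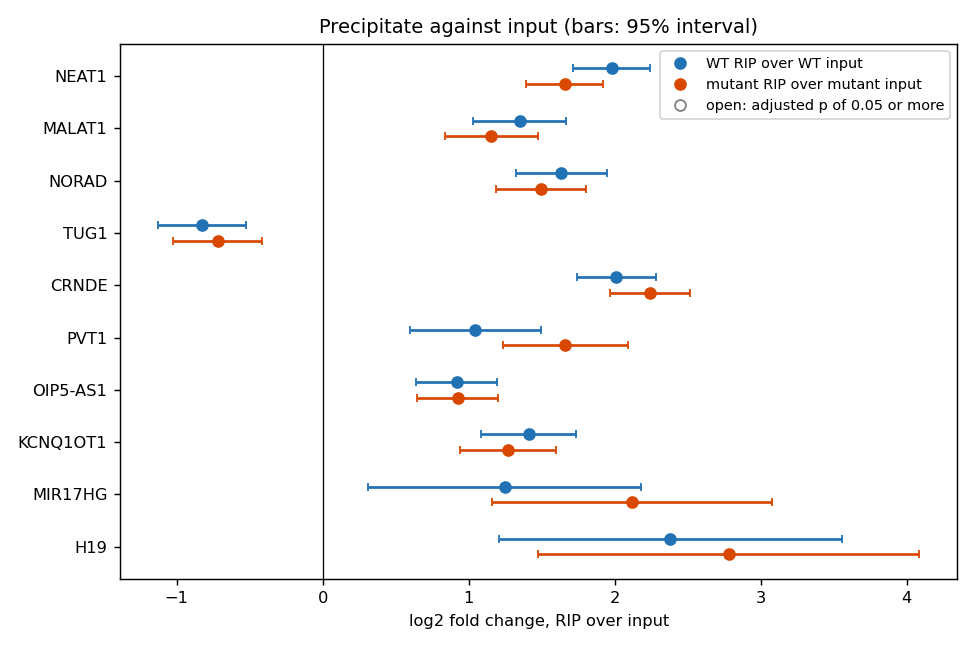
Log2 enrichment in the precipitate over the input of the same line for each lncRNA, with WT HuR and with the mutant, and 95% intervals of the edgeR fit. TUG1 lies at −0.83 and −0.72 and the other 9 lie at 0.92 or above, and the intervals of both lines overlap for each RNA.

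CRNDE (ENSG00000245694, chr16:54879101-54963101, minus strand; 14741 exon bases in 14 segments) is raised in colorectal and other tumours. Its level was 42.4, 42.1 and 49.7 CPM in WT RIP and 11, 12.7 and 9.61 CPM in WT input. It was 45.9, 45.6 and 47.0 CPM in mutant RIP and 8.38, 10.8 and 10.2 CPM in mutant input. The precipitates lay far above the inputs, and the lines overlapped in both kinds of library. CRNDE rose 4.03-fold with WT HuR (2.01 ± 0.13, adjusted p = 8.38e-12) and 4.72-fold with the mutant (2.24 ± 0.13, adjusted p = 7.08e-13). The enrichments differed by 0.23 with an interval of −0.14 to 0.60 (edgeR adjusted p = 0.641). Among 621 long noncoding genes with a mean of at least 2 log2 CPM (TUG1 included), 95% lay below CRNDE in the WT enrichment and 94.8% in the mutant enrichment.

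PVT1 (ENSG00000249859, chr8:128806772-129199347, plus strand; 25431 exon bases in 59 segments) lies downstream of the oncogene MYC and is gained with it in tumours. WT RIP held 3.46, 5.82 and 4.84 CPM and WT input 1.94, 1.68 and 3.19 CPM. Mutant RIP held 13.1, 13.5 and 15.3 CPM and mutant input 4.08, 3.82 and 5.29 CPM. The mutant libraries exceeded the WT libraries of the same kind in every case, by the widest margin in the precipitates. PVT1 rose 2.95-fold in mutant precipitates against WT precipitates (1.56 ± 0.20, adjusted p = 8.22e-06) and 1.92-fold in mutant inputs (0.94 ± 0.22, adjusted p = 0.00454). Of the 621 expressed long noncoding genes, 99.7% lay below it in the first of these comparisons and 98.1% in the second. The input value was 0.51 with total library size and missed the threshold (adjusted p = 0.0942).

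Against its own input, PVT1 rose 2.06-fold with WT HuR (1.04 ± 0.22, adjusted p = 0.000283) and 3.17-fold with the mutant (1.66 ± 0.21, adjusted p = 2.81e-07). The difference of these enrichments was 0.62 ± 0.30 with an interval of 0.00 to 1.23, at an unadjusted p of 0.0495 and an edgeR adjusted p of 0.38. It therefore did not pass over all genes. Leaving out 1 library moved the difference from 0.29 to 0.80, never called. The annotated snRNA pseudogene RNU4-25P shares 63 exon bases with PVT1 and held 4.75% to 11.9% of its count.

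KCNQ1OT1 (ENSG00000269821, chr11:2618538-2721233, minus strand; 92625 exon bases) is the paternally expressed antisense RNA of KCNQ1 that silences imprinted neighbours by recruiting chromatin modifiers. It was measured at 26.9, 32.2 and 32.4 CPM in WT RIP and at 11.4, 8.83 and 14.2 CPM in WT input. The mutant line gave 18.8, 22.2 and 27.9 CPM in RIP and 9.84, 9.80 and 8.88 CPM in input. Precipitates were above inputs throughout, and the mutant precipitates overlapped the WT ones through the third mutant library. KCNQ1OT1 rose 2.66-fold with WT HuR (1.41 ± 0.16, adjusted p = 5.72e-08) and 2.41-fold with the mutant (1.27 ± 0.16, adjusted p = 2.37e-07), a difference of −0.14 (interval −0.60 to 0.32). The precipitates differed by −0.41 ± 0.15, just short of the threshold (edgeR adjusted p = 0.0581). The difference was called in 5 of the 12 fits without 1 library, among them that without mutant RIP 3 (−0.57, adjusted p = 0.019). It was also called in 4 of 10 other settings, among them only the groups compared (−0.42, adjusted p = 0.0383). The gene lies within KCNQ1, which held 52 counts over the 12 libraries.

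H19 (ENSG00000130600, chr11:2016396-2025782, minus strand; 3462 exon bases) is the maternally expressed fetal RNA next to IGF2 and the host of miR-675. It was scarce. The WT line gave 62, 52 and 62 counts in RIP and 14, 6 and 2 counts in input. The mutant line gave 86, 34 and 22 counts in RIP and 6, 6 and 0 counts in input. In CPM the means were 0.876 ± 0.146 and 0.758 ± 0.396 in WT and mutant RIP (SD, n = 3) and 0.165 ± 0.127 and 0.112 ± 0.0973 in the inputs. The precipitates exceeded the inputs in both lines, and the lines overlapped. Its fitted enrichments were 2.38 ± 0.57 (adjusted p = 0.00116) and 2.78 ± 0.63 (adjusted p = 0.000584), but a gene that reaches the filter through 1 kind of library had to differ there, so H19 supports no count. The interval of the difference, −1.42 to 2.21, was the widest of the 10.

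The neighbour IGF2 is a fetal growth factor. Its mean level was 798 CPM in WT input, 527 in WT RIP, 496 in mutant input and 263 in mutant RIP. IGF2 fell by 0.60 ± 0.15 in the WT precipitate (adjusted p = 0.00176) and by 0.92 ± 0.15 in the mutant precipitate, and by 1.0 ± 0.15 between precipitates (adjusted p = 4.62e-05). Under total library size its enrichments turned to 0.48 (adjusted p = 0.019) and 0.39 (adjusted p = 0.0539), while it stayed lower between precipitates (−1.19). Of 7 tested neighbours of the 10 lncRNAs, 5 fell and 0 rose in both enrichments. Of all genes 25.4% and 28.0% fell, and of protein-coding genes 34% and 36.1%. FRMD8, beside NEAT1 and MALAT1, stood at −1.22 and −1.62. The counts of the 7 neighbours became 3 higher and 1 lower, and 2 and 0, with total library size, where 15761 and 16795 of all 22984 genes were higher.

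MIR17HG (ENSG00000215417, chr13:91999940-92049846, plus strand; 12894 exon bases in 5 segments) is the host RNA of the miR-17-92 cluster, which is amplified in some lymphomas. Its level was 11.8, 15.4 and 14.7 CPM in WT RIP and 6.70, 8.01 and 3.04 CPM in WT input. It was 20.5, 20.3 and 30.7 CPM in mutant RIP and 2.86, 5.46 and 8.04 CPM in mutant input. Inputs scattered more than for the other members above 1 CPM, and still every precipitate lay above every input of its line and every mutant precipitate above every WT one. MIR17HG rose 2.37-fold with WT HuR (1.25 ± 0.41, adjusted p = 0.0314) and 4.34-fold with the mutant (2.12 ± 0.42, adjusted p = 0.00201), with a difference of 0.87 (interval −0.44 to 2.19; adjusted p = 0.587). The precipitates differed by 0.77 ± 0.39 without passing (edgeR adjusted p = 0.223), and passed with only their groups in the fit (0.77, adjusted p = 0.00137) and with total library size (0.59, adjusted p = 0.038).

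The WT enrichment of MIR17HG depended on single libraries. It missed the threshold without WT RIP 2 (1.17, adjusted p = 0.0852), WT RIP 3 (1.21, adjusted p = 0.0765), WT input 1 (1.39, adjusted p = 0.0531) or WT input 3 (0.92, adjusted p = 0.0616). With no filter on counts it was 1.27 (adjusted p = 0.0665). It was 0.80 (adjusted p = 0.0824) with the trend in GC content removed, which also moved the mutant enrichment to 1.36 (adjusted p = 0.00883). Of 12 tested genes of microRNA processing, 4 rose and 5 fell in the WT precipitate and 6 and 5 in the mutant precipitate (10 and 0, and 11 and 0, with total library size), beside 25.6% and 25.4%, and 29.0% and 28.0%, of all genes with TMM. Total library size gave 15761 and 16795 of all 22984 genes higher. The Argonaute genes did not move as 1: AGO3 was higher (0.90 ± 0.13 and 1.16 ± 0.13) and AGO2 lower (−1.10 ± 0.15 and −1.38 ± 0.15), and with total library size AGO2 stood at −0.05 and −0.07, not called.

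Over the 10 RNAs, 9 rose and 1 fell in the WT enrichment, where 25.6% of all tested genes rose and 25.4% fell. The same split of 9 and 1 held in the mutant enrichment, where 29.0% and 28.0% did. The median of the members was 1.38 with WT HuR and 1.58 with the mutant, against 0.06 and 0.07 over all genes. Leaving out H19, the split was 8 and 1 of 9 in both, with medians of 1.35 and 1.495. The RNA that entered a library was 16 to 77 ng for a precipitate and 250 ng for an input, and amount and precipitation cannot be told apart in these comparisons. Without a mock precipitate, recovery with HuR and recovery with the beads cannot be told apart either.

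Long noncoding genes as a class leaned the same way but less. Of 4523 tested, 1404 rose and 514 fell with WT HuR (median 0.49), and of the 620 with a mean of at least 2 log2 CPM 258 rose and 173 fell (median 0.21). Protein-coding genes leaned to the input with TMM scaling (3090 of 14017 higher and 4770 lower, median −0.13). Total library size gave 3177 higher and 75 lower of the long noncoding genes (median 1.54) and 9564 higher and 664 lower of the protein-coding genes (median 0.93), so the lean to the input was absent under it. Among 621 expressed long noncoding genes, the percentages lying below each member in the WT enrichment were 95 for CRNDE, 94.7 for NEAT1, 91.5 for NORAD, 88.6 for KCNQ1OT1, 86.2 for MALAT1, 83.6 for MIR17HG, 79.5 for PVT1, 75.8 for OIP5-AS1 and 13.5 for TUG1. In the mutant enrichment MIR17HG (93.2) and PVT1 (88.4) stood higher and NEAT1 (88.2) and MALAT1 (79.2) lower than with WT HuR, without any of these shifts passing the test of the difference.

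**Figure D3:**
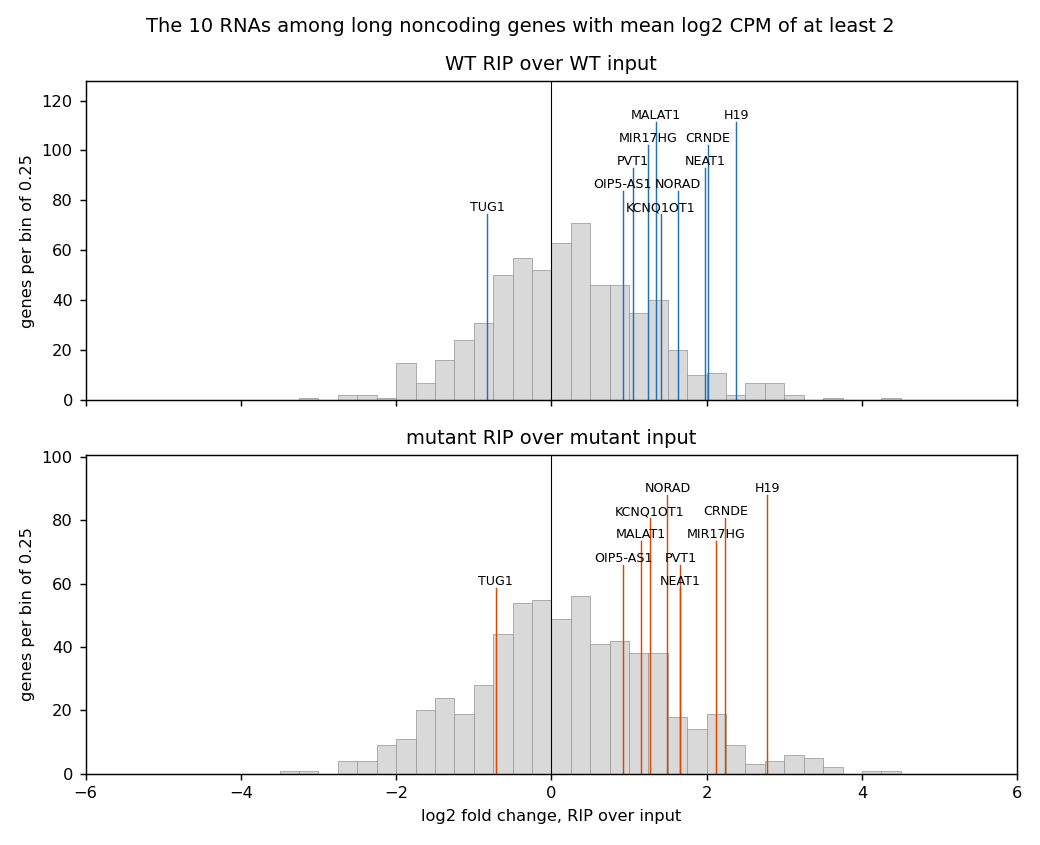
Distribution of log2 enrichment over expressed long noncoding genes (histogram; counts of genes on the vertical axis) with the 10 lncRNAs marked, for WT HuR and for the mutant. The class has medians of 0.21 and 0.18, and 9 of the 10 marks, with H19 shown although it is under the level limit, lie to the right of these.

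Base composition went with enrichment over the class. Split into 3 equal groups of 207 genes by ATTTA per kb, the 621 expressed genes had a median log2 enrichment of −0.45, 0.27 and 0.47 with WT HuR and of −0.49, 0.25 and 0.64 with the mutant, from few to many copies. NEAT1, MALAT1, NORAD, CRNDE, OIP5-AS1 and MIR17HG fell in the group with most copies and TUG1, PVT1 and KCNQ1OT1 in the middle one. Split by GC content instead, the medians were 0.50, 0.21 and −0.30 with WT HuR from GC-poor to GC-rich. How motif density and GC content relate to each other over these genes was not tested. TUG1, with 42.0% GC, was in the GC-poor group, as was MALAT1 with the same 42.0%, and their WT enrichments were −0.83 and 1.35.

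No member passed the test of the difference between the enrichments (0 of 10 by edgeR, 1 at an unadjusted p under 0.05, which is PVT1, and 0 of 8 by DESeq2, which gave PVT1 and H19 no adjusted p), where 0.0653% of all genes were called. The intervals bound what these libraries can show: that of OIP5-AS1 runs from −0.38 to 0.39 and that of NEAT1 from −0.68 to 0.04, so that neither includes a change of 1 log2 unit. Those of PVT1 (0.00 to 1.23), MIR17HG (−0.44 to 2.19) and H19 do include it. A missed threshold does not show that the proteins act alike on these RNAs.

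**Figure D4:**
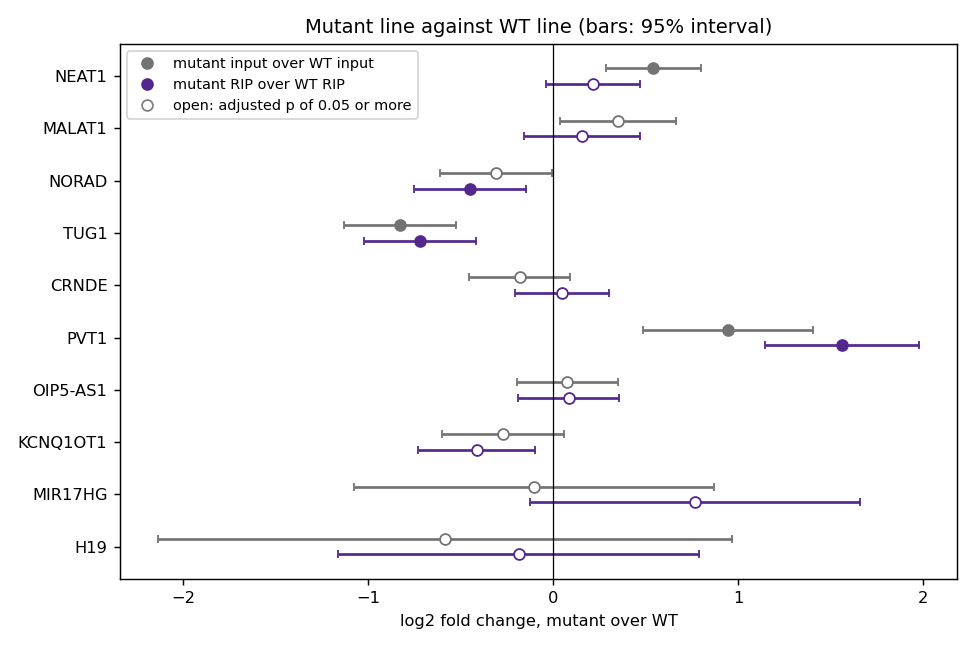
Log2 difference between the mutant and the WT line for each lncRNA in inputs and in precipitates, with 95% intervals of the edgeR fit. PVT1 lies highest (0.94 and 1.56) and TUG1 lies low in both (−0.83 and −0.72).

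Directly between the precipitates, 1 of 10 rose (PVT1) and 2 fell (TUG1 and NORAD), where 9.87% of all genes rose and 9.76% fell. Between the inputs 2 of 10 rose (NEAT1 and PVT1) and 1 fell (TUG1), where 7.47% rose and 10% fell. By total library size the inputs gave 0 higher and 4 lower, where 386 of all 22984 genes were higher and 6822 lower. On that scale NEAT1 and PVT1 were no longer called, and NORAD (−0.74, adjusted p = 0.00103), CRNDE (−0.61, adjusted p = 0.0155) and KCNQ1OT1 (−0.73, adjusted p = 0.00378) joined TUG1. Both comparisons of lines set the same pair of cell lines side by side, and a line and its HuR cannot be told apart in them. ELAVL1, counted from endogenous and tagged mRNA together where both match its exons, differed by −0.27 in inputs (adjusted p = 0.14) and by −0.34 in precipitates (adjusted p = 0.0561).

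**Figure D5:**
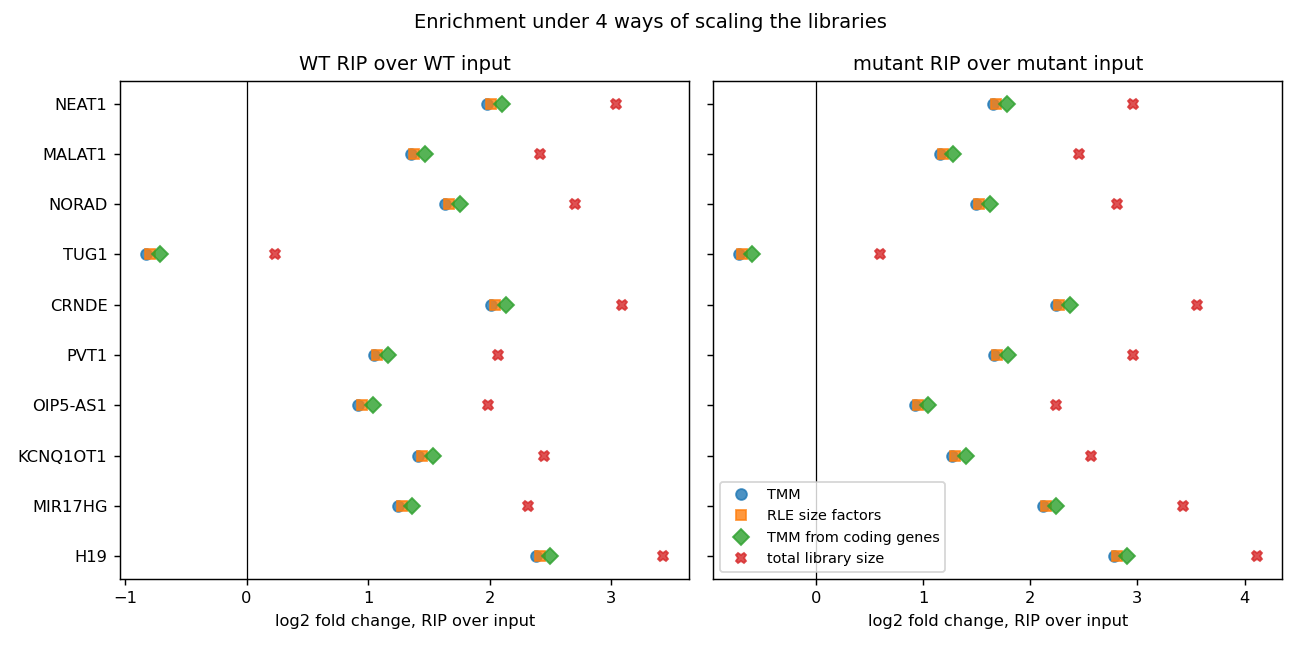
Log2 enrichment of each lncRNA with TMM scaling, RLE size factors (the method of DESeq2), TMM from coding genes and total library size, for WT HuR and the mutant. Every RNA moves up with total library size, and TUG1 crosses 0, from −0.83 to 0.24 and from −0.72 to 0.60.

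Other lncRNAs from a list of 40 names were read in the same fit. Of 29 tested, 16 rose and 2 fell in the WT precipitate (median 0.79) and 17 rose and 4 fell in the mutant precipitate (median 0.87), and with total library size 28 and 0, and 26 and 0. Of all long noncoding genes, 31% rose and 11.4% fell in the WT precipitate and 33% and 14.8% in the mutant precipitate. With total library size 3177 and 3395 of the 4523 long noncoding genes rose. FIRRE, which organises chromosome contacts in the nucleus, stood at 2.58 ± 0.17 (adjusted p = 6.69e-12) and 2.64 ± 0.17, above each of the 9 members other than H19. DANCR stood at 1.24 ± 0.13 and 1.07 ± 0.13, and DLEU2 at 1.18 ± 0.15 and 2.01 ± 0.15. LINC01128 was lower (−1.04 ± 0.19 and −1.16 ± 0.20), as was UCA1, known from bladder cancer (−0.51 ± 0.16 and −0.85 ± 0.17), and with total library size both turned, to 0.01 and 0.16 for LINC01128 and to 0.54 and 0.46 for UCA1.

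Of the 29 other lncRNAs tested, 8 rose and 2 fell between precipitates, where 9.87% of all genes rose and 9.76% fell. Between inputs 4 rose and 2 fell, where 7.47% and 10% did. With total library size these splits were 3 and 2, and 1 and 9. FTX, a long noncoding regulator of X inactivation, was among the higher in both with TMM. It stood at 1.18 between precipitates (adjusted p = 1.09e-05) and at 0.80 between inputs (adjusted p = 0.00255, and 0.35 with total library size, adjusted p = 0.282). LINC00511 was higher in both as well (1.08, adjusted p = 1.16e-05, and 1.33, adjusted p = 1.68e-06). Of 10 chromatin partners of lncRNAs, 2 rose and 4 fell in the WT precipitate and 5 rose and 2 fell in the mutant precipitate, against 9 and 0 in both with total library size and 25.6% and 25.4%, and 29.0% and 28.0%, of all genes with TMM. Total library size gave 15761 and 16795 of all 22984 genes higher. EED and EZH2, subunits of the Polycomb complex, stood at 1.19 ± 0.14 and 1.01 ± 0.12 with WT HuR and at 2.02 ± 0.14 and 1.45 ± 0.12 with the mutant. Other subunits differed: SUZ12 had mean levels of 44.5 CPM in WT RIP and 40.6 in WT input, and RBBP4 68.7 and 93.3. In the mutant line these were 58.1 and 37.1, and 53.8 and 60.8. EHMT2, a histone methyltransferase linked to KCNQ1OT1, stood at −1.11 ± 0.14 and −1.33 ± 0.14 (−0.06 and −0.02 with total library size, not called). No gene of these lists passed the test of the difference between enrichments with TMM scaling, and EED alone was called there once total library size set the scale (1.08, adjusted p = 0.0456).

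The genes closest in pattern were taken by the root mean square difference of the 4 group means of log2 CPM, each gene centred on its mean, among 10409 genes. For NORAD the closest was TMSB4X (0.00875), for CRNDE ADAMTS6 (0.00826), for OIP5-AS1 RPL14 (0.0156), for KCNQ1OT1 AAMDC (0.0177) and for MIR17HG MAP2K5 (0.0244). TUG1 was followed by KLB (0.0338), MALAT1 by MHENCR (0.0366), NEAT1 by HSPE1P2 (0.047), PVT1 by GAS5-AS1 (0.0842) and H19 by FIRRE (0.0852). Likeness over 4 means is loose: with the 12 libraries in place of the means, at most 1 of the 3 closest genes of a member was shared.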

How the data were processed

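Each deposited file holds unnormalised whole-number counts for the Ensembl genes of 1 library. Per the submitters' processing notes, the authors used bcl2fastq 2.20.0.422, cutadapt, STAR 2.4.0j and featureCounts 1.6.4 with hg19. The annotation release, strand setting and treatment of reads with several places are not given in the sources used here, so genes that overlap on opposite strands may share reads. Identifiers were matched to GENCODE release 44 lifted to GRCh37, where 55538 of 57773 matched, and those without a match held 2.65% to 21% of a library's counts.

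The members, gene lists and tests were chosen with earlier results of these data known. The text names the members, their neighbours and hosted microRNAs, up to 4 members per list by adjusted p, the closest genes by pattern and ELAVL1. A few results this rule selects are not reported here. SFPQ, LINC01128, UCA1, SUZ12, RBBP4 and genes overlapping a member were named after their values were seen. The filter was edgeR's filterByExpr, with a minimum count of 10 and a minimum total of 15. Genes were fitted in 1 robust quasi-likelihood model of all 12 libraries in edgeR 4.0.16 (R 4.3.3, limma 3.58.1), with TMM factors, 4 groups, 8 residual degrees of freedom and Benjamini-Hochberg adjustment over 22984 genes. The common biological coefficient of variation was 0.157. Standard errors come from the F statistic and intervals from the t distribution of the fit. The fit was tested on simulated data in which the 4 groups shared their means. For each size of change, 50 genes were altered in 1 group. The wide shift between precipitates and inputs was absent from it, so its rates need not hold for these libraries. In the simulation the difference of enrichments found 2% of rises of 0.5 log2 units, 30% of rises of 1 and 90% of rises of 2. Of falls of 1 it found 48%. False calls were 4 of 89 in that comparison, 10 of 139 in the WT enrichment, 10 of 140 between precipitates and 5 of 123 between inputs. Python 3.11.15, numpy 2.4.6, pandas 2.3.3, scipy 1.17.1 and matplotlib 3.10.9 made tables and figures. Alternatives were DESeq2 1.42.0 and its size factors, total library size, TMM from coding genes, no filter, a stricter filter (3 libraries with 50 counts), a fit without the groups outside a comparison, a limit of 1 log2 unit on the fold, the replicate number as a block, a GC trend removed, and each library left out. Replicates of a group differed by more than counting noise (chi-square over its degrees of freedom, 15 to 229).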

Additional observations from a re-analysis of the deposited data

How the results depend on the processing

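Calls among the 10 lncRNAs were 10 in the WT enrichment, 10 in the mutant enrichment, 0 in the difference of enrichments, 3 between precipitates and 3 between inputs. Leaving out 1 library gave 9 to 10, 10 to 10, 0 to 0, 2 to 4 and 3 to 3. With a fold limit of 1 the calls were 6, 6, 0, 0 and 0. Of all 22984 genes, that limit left 1503 higher and 1147 lower in the WT enrichment and 2385 and 1919 in the mutant enrichment. It left 0 in the difference of enrichments, 64 and 38 between precipitates and 54 and 39 between inputs. Without H19, which passed the filter only through the precipitates, the enrichments gave 9 and 9 calls of 9, 8 to 9 and 9 to 9 leaving out 1 library, and 5 and 5 with the fold limit. With total library size 5 were called between precipitates. Each library's deviation from its group's mean log2 CPM was correlated over 5818 of the more highly expressed genes. Within a group these deviations sum to 0, so mixed signs are built in. For same-numbered libraries the values were 0.373, 0.16 and −0.166 (WT RIP and input) and 0.318, −0.00297 and 0.529 (mutant RIP and input). They were 0.424, 0.754 and 0.022 (the precipitates) and −0.397, 0.251 and −0.627 (the inputs). Differently numbered libraries ran, in the same order, from −0.53 to 0.271, −0.594 to 0.42, −0.559 to 0.242 and −0.436 to 0.668. A pairing or batch behind the replicate numbers was not tested further. With the replicate block the calls were 10, 10, 0, 4 and 3, KCNQ1OT1 joining between precipitates (−0.42, adjusted p = 0.0405), and with the replicate block within line 10, 10 and 0.

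With total library size TUG1 reversed to 0.24 (WT) and 0.60 (mutant). The difference of enrichments reversed for MALAT1 (0.041), NORAD (0.11) and KCNQ1OT1 (0.13). Between precipitates MALAT1 (−0.032), CRNDE (−0.14) and OIP5-AS1 (−0.11) reversed, and between inputs MALAT1 (−0.073) and OIP5-AS1 (−0.36). With the GC trend removed the difference of enrichments reversed for TUG1 (−0.034) and OIP5-AS1 (−0.11), precipitates for CRNDE (−0.028) and inputs for MIR17HG (0.10). Removing the trend moved the WT and mutant enrichments of NEAT1 to 1.70 and 1.29, of NORAD to 1.31 and 1.02, and of CRNDE to 1.62 and 1.62. KCNQ1OT1 moved to 1.115 and 0.88 and PVT1 to 0.86 and 1.49, all of these still called, while H19 moved up to 3.16 and 3.80. Without single libraries the difference of enrichments ran from −0.046 to 0.24 for TUG1, −0.13 to 0.093 for OIP5-AS1 and −0.43 to 0.87 for H19. Between precipitates H19 ran from −0.72 to 0.025, and between inputs MIR17HG from −0.49 to 0.21 and H19 from −1.06 to 0.21. TUG1's are the reversals of called values. The cause was not tested. Depth limits H19, at 0 to 14 counts per input.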
